A study of Mus musculus with 22 samples.

Results

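Baseline translation efficiency (TE) was described in the control cells of a ribosome profiling study of NIH3T3, a fibroblast line grown from mouse embryos. The control lysates numbered 5, of which 3 came from cells with a scramble shRNA and 2 from cells with an shRNA against Gfp. From every lysate both ribosome-protected fragments (RPF-seq) and total RNA (RNA-seq) were sequenced, so that 10 of the 22 libraries of the series were used. Libraries of Denr knockdown cells were left out. The log2 TE of a gene was taken in each lysate as log2(RPF-seq RPKM + 0.1) minus log2(RNA-seq RPKM + 0.1) of its coding sequence (CDS), relative to the median gene of that lysate, whose TE is 0 by this definition. Of the 10516 genes in the files, the 10309 with a mean RNA-seq CDS RPKM of at least 1 over the 5 lysates were kept. Just inside this limit lay Sorcs2 with a mean RPKM of 1.00 and a TE of 0.60, and just outside it Ubxn11 with 0.996 and a TE of -1.07.

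The control cells were not untreated. They carried a lentiviral pLKO.1puro vector with a non-targeting shRNA or one against Gfp, had been selected with puromycin, and received cycloheximide (100 µg/ml for 2 min at 37 °C) before lysis. Cycloheximide stops elongating ribosomes on the mRNA, so the footprints show where ribosomes stood, not how fast they moved. The density of the dishes is given as subconfluent in the labels and as confluent in the methods. Each replicate was 1 dish, and the p-values measure the spread between these dishes of 1 cell line.

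TE is the number of footprints on a CDS relative to the amount of its mRNA. It is set mostly by how often a ribosome starts at the main AUG, which in turn depends on the cap, on structure in the 5′ UTR, on the bases around the AUG and on upstream open reading frames (uORFs), short frames in the 5′ UTR that capture scanning ribosomes. Some mRNAs are known for regulated initiation. Among them are those of ferritin, which iron regulatory proteins hold back when iron is scarce, and those of the polyamine enzymes. Others are those of Atf4 and a few of its targets, which are poorly translated until the kinase-controlled factor eIF2 is phosphorylated.

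The reads on CDSs numbered 11431555 to 20275028 in the RPF-seq libraries and 7728541 to 16792679 in the RNA-seq libraries. TE correlated between lysates with Pearson's r of 0.907 to 0.965 across genes, with the lowest value between the Gfp lysates. Gfp replicate 1 stood somewhat apart from the others, and scramble replicate 3 had the deepest RPF-seq and the shallowest RNA-seq library. Of 14 fibroblast markers, 13 were measured, with mean mRNA levels of 26.6 (Fbn1) to 4110 RPKM (Vim), whereas of 15 markers of other cell types only Cdh1 (3.64 RPKM), Des (1.12) and Cdh5 (0.736) were in the table.

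For some genes the measured TE is uncertain for reasons that lie in the counting. First, genes with near-identical copies elsewhere share reads with them. Where at least 20% of the 30-nt windows of a CDS also occur in transcripts of other genes, the value is called shared below. This is said for genes named by rule or for their list, not for each further member named. Second, whether strand was used in counting was not stated, so a gene on the opposite strand may add reads. Of the genes named by rule below, this concerns Hnrnpd, Map3k10, Metrn, Tmcc2, Sephs2, Bloc1s4, Ftl1 and Txnrd2. It also concerns Fbn1, Fn1, Manf, Zfp236, Med13, Nr1d1 and Bhlhe41. In addition, the regions of intronless genes on the minus strand differed from the annotation. The length behind the RPKM of the 5′ UTR could be recovered from the values and was compared with the annotation in genes with 1 coding transcript and an equal CDS length. It equalled the annotated 5′ UTR in 82.2% of 1244 plus-strand and 80.6% of 1273 minus-strand genes with several exons, and in 82.8% of 93 intronless plus-strand genes. In intronless minus-strand genes it did so in 0 of 46, and in 33 of them (71.7%) it equalled the annotated 3′ UTR with the stop codon, which is the length seen from the wrong end of the transcript. There were 74 such genes among those tested. Of them 25.7% had a TE below the median gene by the test described next. This compares with 12% of all genes tested and 4.96% of the 121 intronless plus-strand genes. Their TE is given here as deposited and is not read as that of the annotated CDS. Rhob, which encodes a small GTPase and had the lowest TE of all named genes (-7.31), is one of them, with a counted 5′ UTR of 1282 nt where 377 nt are annotated and a 3′ UTR of 1381 nt. Sephs2 (-6.67) and Bloc1s4 (-4.46) are others.

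TE varied over a far narrower range than mRNA abundance. Its SD over genes was 0.99 ± 0.03 on the log2 scale (mean and SD of 5 lysates), beside 2.04 ± 0.02 for mRNA and 2.36 ± 0.02 for footprints. The gene at the 90th percentile had a TE 5.16 ± 0.332-fold higher than the gene at the 10th. The median SD of a gene between lysates was 0.165. A test of whether TE lay more than 2-fold from the median gene (limma treat, Benjamini-Hochberg FDR below 0.1) found 565 genes above it, which is 5.48% of those tested, and 1234 below it, which is 12%. All 5 lysates lay on the same side of 0 in every one of these 1799 genes, which a call by the mean of these same lysates makes nearly certain. The split depends on where 0 is set, since the mean gene lies 0.12 below the median gene. Centred on the mean gene, 745 genes lay above and 1023 below, so that 42.1% of the calls were above instead of 31.4%. Poorly translated genes thus formed a longer tail than well translated ones, with the 1st percentile at -2.93 ± 0.06 and the 99th at 2.01 ± 0.05.

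**Figure D1:**
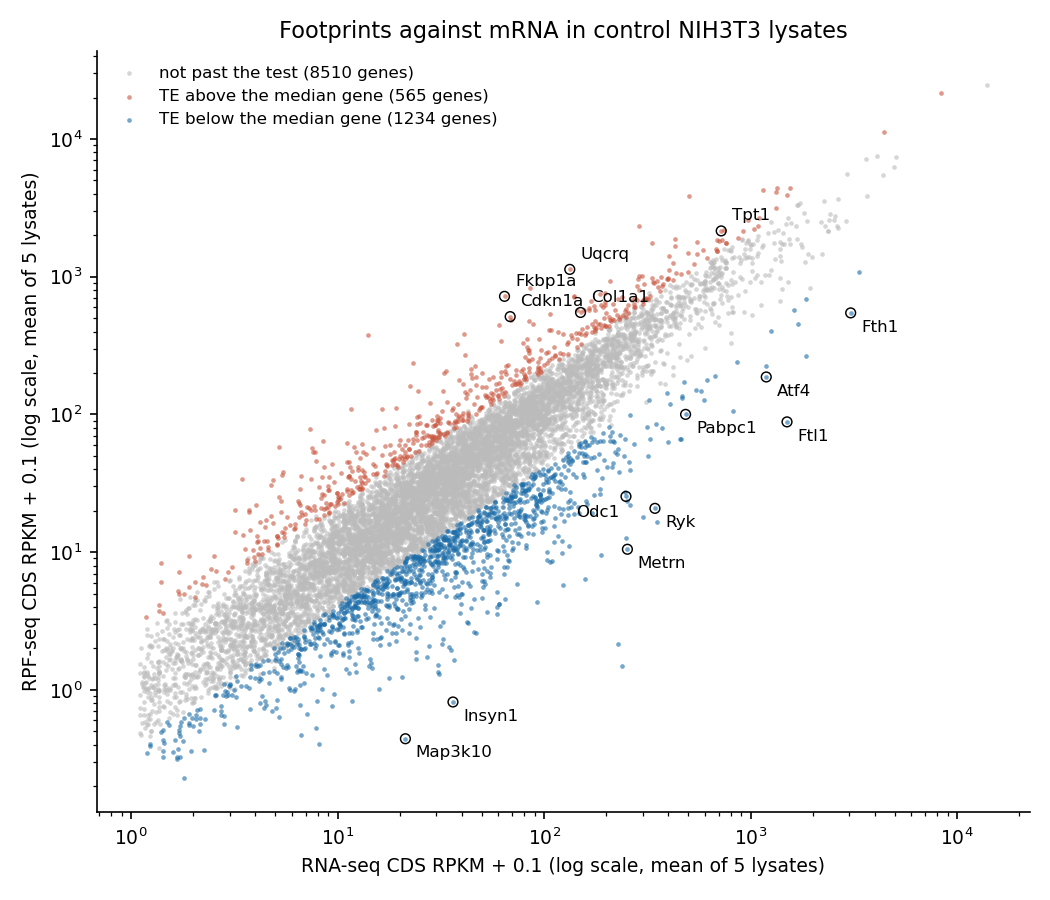
RPF-seq CDS RPKM against RNA-seq CDS RPKM (both + 0.1, log scales, means of 5 control lysates) for the 10309 genes tested, 1 point a gene. The 565 genes with a TE above the median gene lie along the upper edge of the cloud and the 1234 below it along the lower edge, with Fkbp1a and Insyn1 among the most distant.

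The well and the poorly translated genes differed little in mRNA abundance. Genes above the median gene had a median of 34.0 RPKM in RNA-seq and genes below it of 30.3, whereas their median footprint levels were 97.4 and 7.60 RPKM. TE rose only slightly with abundance when each was taken from different lysates, with a Spearman's rho across genes of 0.185 for TE of the scramble and mRNA of the Gfp lysates and 0.148 for the reverse. In reads, the genes above took 4.79% ± 0.0833 (SD, n = 5) of the RNA-seq CDS reads and 13% ± 0.178 of the footprints. Genes below took 16.4% ± 0.441 of the RNA-seq reads and 3.94% ± 0.0559 of the footprints. The classes were called on the ratio of these same values. The direction of these shifts and of the gap in footprint levels is therefore given by the choice, and only their size is described.

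Among the genes with the highest TE was Fkbp1a, the immunophilin that binds FK506. Its footprints stood at 716, 751, 689, 736 and 707 RPKM in scramble 1, 2 and 3 and Gfp 1 and 2 (the order used throughout), against 67.7, 62.0, 62.5, 70.5 and 58.3 RPKM of mRNA. All lysates were alike, with a TE of 3.56 ± 0.11 (limma, adjusted p = 8.17e-07), and the CDS counted for it was 283 nt long. Others among the 10 highest were Sox9, a transcription factor of cartilage (3.43 ± 0.20), Ubqln2, a shuttle factor of the proteasome (3.33 ± 0.24), Ecm1, a secreted matrix protein (3.29 ± 0.10), Hnrnpd, an RNA-binding protein also called AUF1 (3.18 ± 0.17), Uqcrq, a subunit of respiratory complex III (3.17 ± 0.25), and Apbb1ip, an adaptor of Rap1 signalling (3.00 ± 0.29). Eif1 and Hist1h2br also belonged there, but 98.1% and 100.0% of their CDS windows are shared. Hnrnpd has a gene on the opposite strand over its CDS.

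At the low end, intronless minus-strand genes aside, stood Map3k10, a kinase of the JNK pathway. Its mRNA was present at 21.5, 21.5, 17.6, 23.9 and 21.3 RPKM, but its footprints reached only 0.407, 0.308, 0.366, 0.241 and 0.387 RPKM, which are 10 to 21 reads per library. This is a TE of -5.52 ± 0.36 (limma, adjusted p = 6.68e-07). Insyn1, an inhibitory synapse protein, followed at -5.40 ± 0.21, with 32.8 to 39.5 RPKM of mRNA and 7 to 12 footprint reads. Metrn, the secreted factor meteorin, was the most abundant of this group. Its mRNA was at 266, 249, 208, 304 and 236 RPKM and its footprints at 11, 8.18, 9.43, 11.8 and 11.5 RPKM, a TE of -4.51 ± 0.22 with no overlap between the assays. Tmcc2, a membrane protein (-4.51 ± 0.28), Wbp1, a WW-domain binding protein (-4.44 ± 0.29), and Gpr153, an orphan receptor (-4.43 ± 0.91), completed the list together with Rpl36, whose CDS windows are all shared and whose lysates ranged from -7.26 to -3.39. Gpr153 had 0 footprint reads in scramble 3 and up to 17 elsewhere. Map3k10, Metrn and Tmcc2 each have a gene on the opposite strand over the CDS.

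**Figure D2:**
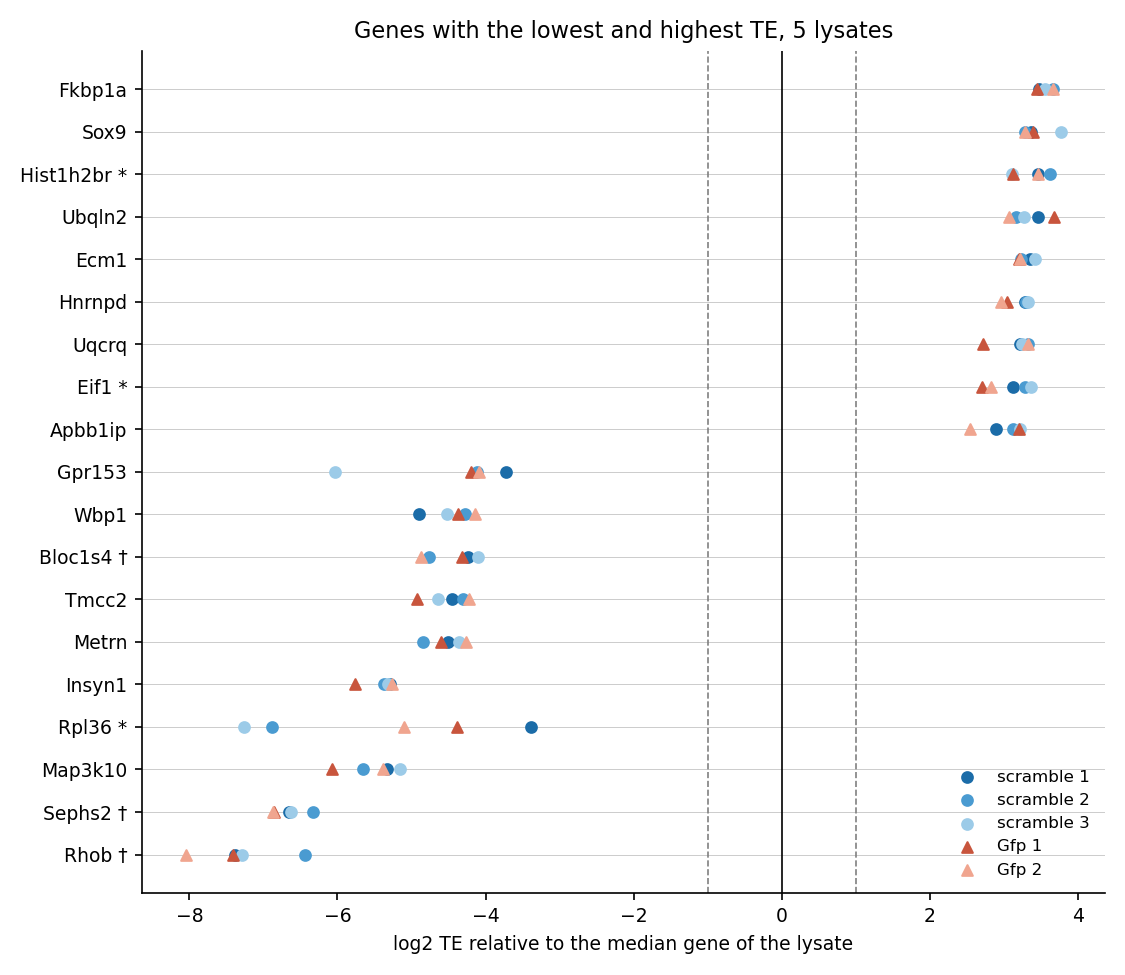
Log2 TE relative to the median gene in each of the 5 control lysates (circles scramble, triangles Gfp) for the 10 lowest genes and 9 of the 10 highest. The lysates of a gene lie close together next to the distance from 0 except in Rpl36 and Gpr153, * marks genes with at least 20% of CDS windows shared and † intronless minus-strand genes, and dashed lines mark 2-fold.

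The start codons of these extremes are shown to set the bases around the AUG beside the TE. The sequences are from GENCODE vM21 (GRCm38), 9 bases before to 3 bases after the AUG, which is in capitals, for the 5 lowest and 5 highest genes that are neither shared nor intronless on the minus strand.
Map3k10 (chr7:27674019-27674033, minus): ccctcccccATGgag
Insyn1 (chr9:58490228-58490242, plus): tggtgaaggATGaac
Metrn (chr17:25796957-25796971, minus): cccctaaccATGctg
Tmcc2 (chr1:132391178-132391192, minus): acttacaccATGaag
Wbp1 (chr6:83121266-83121280, minus): ggtggaggcATGgct
Fkbp1a (chr2:151542699-151542713, plus): gccgccgccATGgga
Sox9 (chr11:112782576-112782590, plus): ggctcgcgtATGaat
Ubqln2 (chrX:153498445-153498459, plus): gcggccgccATGgct
Ecm1 (chr3:95739437-95739451, minus): tgccccaggATGggg
Hnrnpd (chr5:99978619-99978633, minus): agtagcactATGtcg

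Their likeness to the optimal Kozak sequence, scored from 0 to 13, was 7, 3, 5, 6 and 10 for the poorly translated genes in the order shown and 13, 1, 13, 8 and 5 for the well translated ones, so that single genes of either kind had good and bad contexts. Across all genes the context was weakly related to TE. The median TE of the 3005 genes with a score over 8 exceeded that of the 2776 genes under 6 by 0.21 ± 0.03 (SD over 5 lysates, exact two-sided sign-flip permutation test, p = 0.063). This p is the smallest that 5 lysates allow, so that no comparison of lysate medians here could pass 0.05.

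uORFs were more closely related to TE than the context of the AUG. A frame that opens with an AUG in the annotated 5′ UTR, reaches a stop codon and spans 9 nt or more was counted as a uORF, and 5010 of the 10053 genes with an annotated 5′ UTR had at least 1. Their median TE lay below that of the 5043 genes without by -0.51, -0.55, -0.58, -0.42 and -0.55 in the 5 lysates (mean -0.52 ± 0.06, exact sign-flip permutation p = 0.063). TE went down with each further uORF, from a median of 0.22 ± 0.03 without a uORF over -0.13 ± 0.02 with 1, -0.34 ± 0.03 with 2, -0.43 ± 0.06 with 3 and -0.49 ± 0.07 with 4 to -0.63 ± 0.08 with 5 or more. The share of genes below the median gene by the test rose from 5.04% to 27.5% over the same steps, next to 12% of all genes. Seen from the genes, 78.7% of those below had a uORF and 33.8% of those above, against 49.8% overall. Genes with both a uORF inside the 5′ UTR and one that overlaps the CDS had the lowest median of the kinds of uORF (863 genes, -0.65 ± 0.06), and genes with an overlapping uORF alone (764 genes, -0.17 ± 0.02) were not lower than those with uORFs inside the 5′ UTR alone (3383 genes, -0.26 ± 0.04). Yet 254 of the genes below the median gene had no AUG uORF.

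CDS length was the feature most strongly related to TE. In the shortest eighth of CDSs, 75 to 594 nt, the median TE was 0.56 ± 0.10, and it went down in every eighth to -0.70 ± 0.12 in the longest, 3186 to 28156 nt. The longest eighth lay below the shortest by -1.18, -1.44, -1.31, -0.93 and -1.44, with the smallest difference in Gfp 1 (mean -1.26 ± 0.21, exact sign-flip permutation p = 0.063). Spearman's rho across genes was -0.463 to -0.311 for CDS length and -0.307 to -0.270 for the number of uORFs, over 10309 and 10053 genes that share their libraries. After TE was corrected for CDS length with a smooth curve in each lysate, rho for uORFs was -0.281 to -0.243 and the difference of genes with and without a uORF -0.39. The longest 20% of 5′ UTRs, from 357 nt, lay below the shortest, up to 80 nt, by -0.54 ± 0.10. TE was highest at intermediate GC content of the 5′ UTR and lower in the 20% of genes with the highest GC, over 73.7%, than in the middle 20% of genes by -0.39 ± 0.03.

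**Figure D3:**
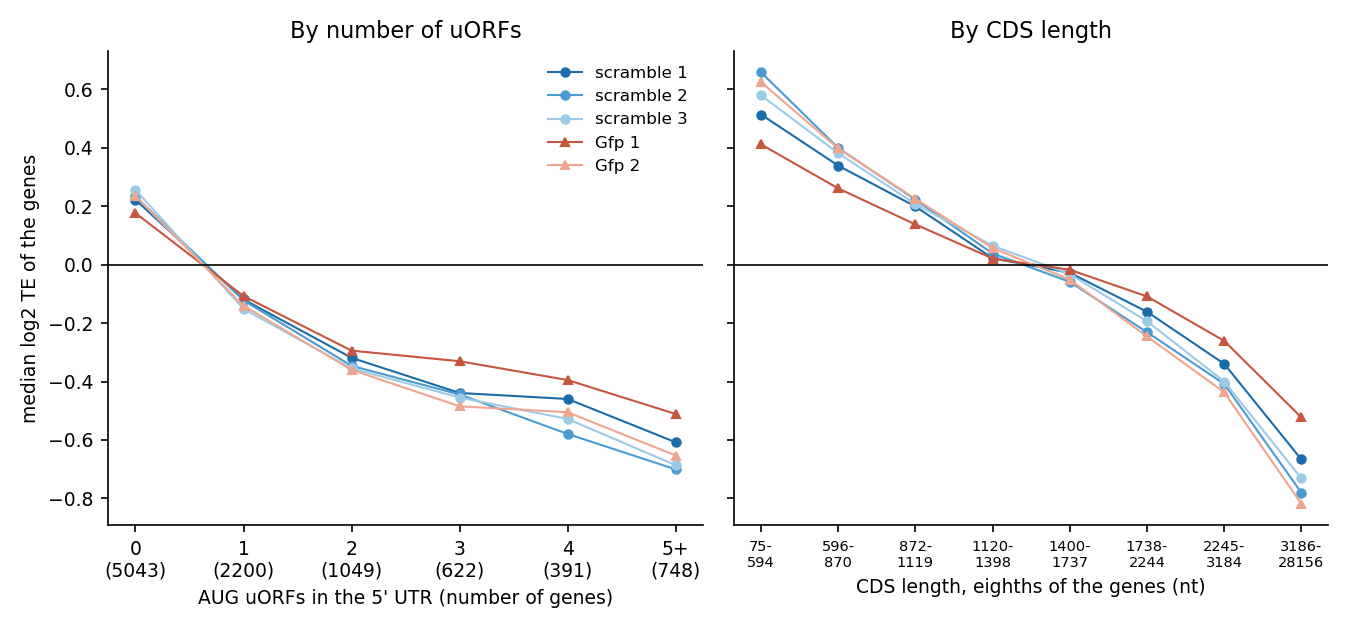
Median log2 TE of genes in each control lysate (lines; circles scramble, triangles Gfp) by the number of AUG uORFs in the 5′ UTR (left, number of genes in brackets) and by eighths of CDS length in nt (right). In all 5 lysates the medians go down from left to right in both panels, from 0.22 to -0.63 and from 0.56 to -0.70 on average, and the line of Gfp 1 is the flattest.

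Footprints on the 5′ UTR are a readout that the TE of the CDS does not use. In 5271 genes with at least 20 reads on the 5′ UTR on average in both assays, the log2 ratio of 5′ UTR footprints to 5′ UTR mRNA had a median of 0.26 ± 0.22 in the 350 genes with TE above the median gene, of -0.23 ± 0.16 in the 822 genes below it, and of -0.22 ± 0.19 in the other 4099. Among these genes, the 5′ UTRs of well translated ones carried more footprints than those of the rest (difference 0.48 ± 0.06). Poorly translated genes differed from the rest by -0.01 ± 0.07 (exact sign-flip permutation p = 0.6875). This was below 0 in the 3 scramble lysates (-0.0063, -0.0356 and -0.0964) and above it in Gfp 1 and 2 (0.0834 and 0.0075). The limit of 20 reads also fell on the footprints compared here, so 5′ UTRs with mRNA but few footprints were left out. Examples are Metrn, with 2.8 footprint and 75 RNA-seq reads on average, and Psmd2, with 1.2 and 92. How such genes would shift the medians was not tested. With a limit of 50 reads, poorly translated genes lay below well translated ones by -0.38 instead of -0.49.

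Stress genes known for uORFs had many members with a low TE. Of 14 such genes 6 (42.9%, against 12% of all genes) had a TE below the median gene and 0 above, with a list median of -0.93 ± 0.03. Atf4, the transcription factor of the integrated stress response, had 1190, 1150, 1180, 1240 and 1190 RPKM of mRNA. Its CDS held only 187 ± 35.6 RPKM of footprints (SD, n = 5). All lysates were low, with a TE of -2.60, -2.51, -3.03, -2.67 and -2.26 and a mean of -2.61 ± 0.28 (limma, adjusted p = 1.42e-05). Its 5′ UTR in contrast held 712 RPKM of footprints against 592 of mRNA, 0.43 ± 0.35 above the median 5′ UTR. The uORFs of Atf4 in GENCODE vM21 (GRCm38, chr15, plus strand) are shown because they precede a CDS with so few footprints, with start and stop codons in capitals and, for the longer frames, 6 bases before and 9 after the AUG.
Atf4 uORF 1 (start at chr15:80255297-80255314): tctctcATGgggccttta
Atf4 uORF 2 (whole, chr15:80255582-80255593): ATGgcgtatTAG
Atf4 uORF 3 (start at chr15:80255675-80256213, across an intron): taagccATGgcgctcttc

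The frames are 36, 3 and 59 codons long, and uORF 3 overlaps the start of the CDS. Ppp1r15a, the phosphatase subunit GADD34 that reverses eIF2 phosphorylation, had 6 uORFs in an annotated 5′ UTR of 764 nt (886 nt were counted) and a TE of -3.06 ± 0.11, while its 5′ UTR lay 1.11 ± 0.42 above the median 5′ UTR. Ddit3, the transcription factor CHOP, had a TE of -1.77 ± 0.24. It showed 26.2 RPKM of footprints for 95.0 of mRNA on the CDS and 108 for 110 on the 5′ UTR. Its 5′ UTR lay 0.19 ± 0.25 from the median 5′ UTR. Slc35a4, with 18 annotated uORFs, had the lowest TE of the list (-4.36 ± 0.29, 59.7% of windows shared). Its footprints were at 4.25 RPKM for 92.0 of mRNA on the CDS and at 68.2 for 78.5 on the 5′ UTR. Its 5′ UTR lay at the median 5′ UTR (-0.01 ± 0.20). Atf5, an Atf4 relative, was not past the test (-0.95 ± 0.08). Its 5′ UTR lay 1.82 ± 0.34 above the median 5′ UTR, with 374 RPKM of footprints for 121 of mRNA. The members with the highest TE were Slc7a1, a transporter of cationic amino acids (0.78 ± 0.12), and Gadd45g (0.75 ± 0.16), and neither was past the test. Gadd45g had 0 AUG uORFs in the annotation used here. The other members below were Ibtk (-1.91 ± 0.33) and Ifrd1 (-1.35 ± 0.10).

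**Figure D4:**
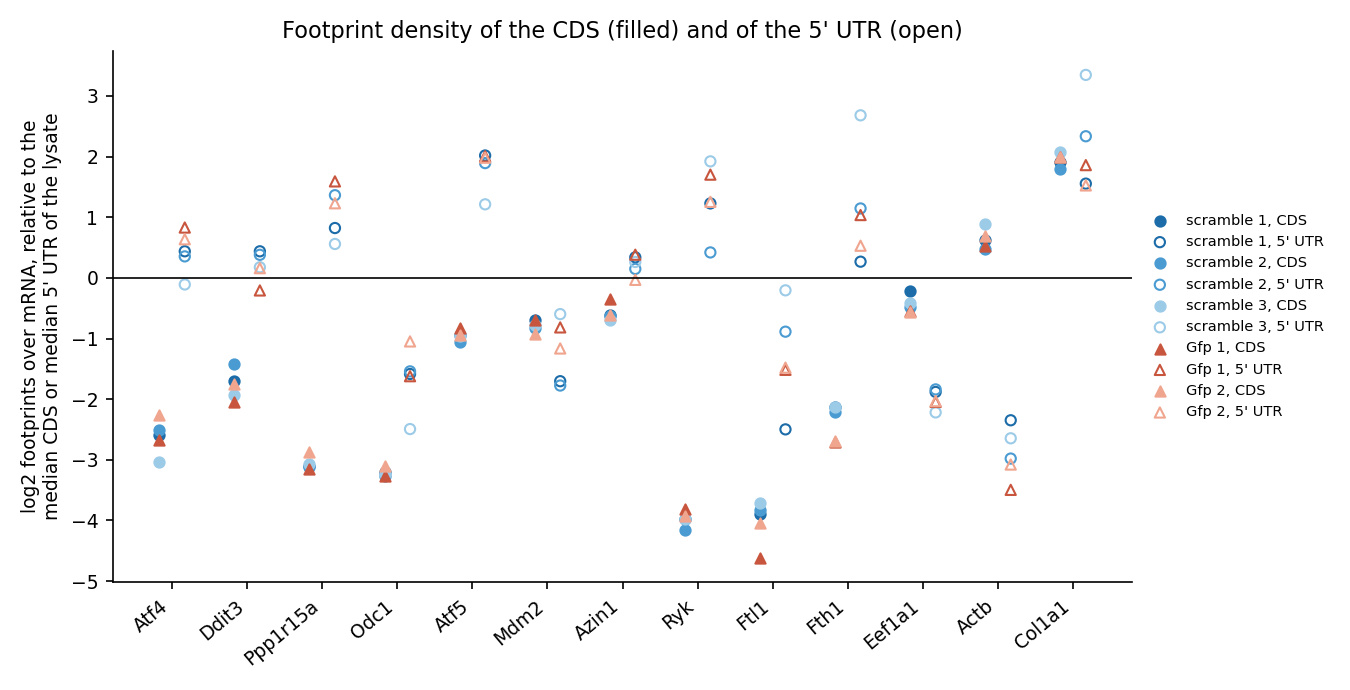
Log2 ratio of footprints to mRNA on the CDS (filled) and on the 5′ UTR (open) of 13 genes in each control lysate (circles scramble, triangles Gfp), relative to the median CDS and the median 5′ UTR of the lysate. For Atf4, Ddit3, Ppp1r15a, Ryk and Fth1 the CDS lies below 0 and the 5′ UTR above it, except on the 5′ UTR of Atf4 in scramble 3 and of Ddit3 in Gfp 1, for Eef1a1 and Actb the 5′ UTR is far below the CDS, and for Col1a1 both lie above 1.5.

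Polyamine synthesis is a pathway known for translational control. Odc1, ornithine decarboxylase and the first enzyme of the pathway, had 276, 267, 273, 232 and 198 RPKM of mRNA and 28.3, 26.2, 27.3, 23 and 21.8 RPKM of footprints. Its TE of -3.21 ± 0.07 (limma, adjusted p = 7.43e-07) varied little between lysates, although 83.1% of its windows are shared. It was the only 1 of 9 pathway members past the test (11.1%, near the 12% of all genes), and the list median was -0.71 ± 0.03 with 7 of 9 members below 0. Amd1, S-adenosylmethionine decarboxylase, stood at -1.14 ± 0.56 with all windows shared. Its uORF, which encodes 6 amino acids, is the textbook example of a uORF that senses polyamines, and is printed here with the shorter uORF of Odc1 (start and stop codons in capitals).
Amd1 (chr10:40302155-40302175, minus): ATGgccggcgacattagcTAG
Odc1 uORF 1 (chr12:17544921-17544947, plus): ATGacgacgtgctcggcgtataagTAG

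Oaz1, the antizyme that marks Odc1 for degradation and is made through a frameshift, stood at -1.16 ± 0.48 (91.0% shared). Its lysates ranged from -1.77 to -0.58, and the antizyme inhibitor Azin1 stood at -0.58 ± 0.13. At the top were Srm, spermidine synthase (0.77 ± 0.13), and Oaz2 (0.44 ± 0.49, 63.8% shared), neither past the test.

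The mRNAs with an iron-responsive element (IRE) in the 5′ UTR included some of the most abundant poorly translated messages. An IRE is a hairpin that iron regulatory proteins bind. Of 4 measured members 3 (75%, against 12% of all genes) lay below the median gene by the test. The 5′ UTR hairpins of these 3 are shown (GENCODE vM21, GRCm38). The bulged C and the loop are in capitals and, between them, stand the bases that pair across the loop.
Ftl1 (chr7:45459780-45459806, minus): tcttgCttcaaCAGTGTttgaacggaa
Fth1 (chr19:9982733-9982759, plus): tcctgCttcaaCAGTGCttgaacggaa
Slc40a1 (chr1:45925466-45925492, minus): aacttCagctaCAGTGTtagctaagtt

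Fth1, the ferritin heavy chain, had 3080, 2750, 1740, 4030 and 3640 RPKM of mRNA, among the highest levels in the cell, and 664, 562, 376, 591 and 538 RPKM of footprints. Its TE was -2.37 ± 0.30 (limma, adjusted p = 4.12e-05, 23.5% of windows shared), with both Gfp lysates lower than the 3 scramble lysates. Ftl1, the light chain, had 1540, 1500, 1230, 1720 and 1520 RPKM of mRNA and 97.6, 101, 87.8, 67.0 and 87.8 RPKM of footprints, a TE of -4.02 ± 0.36, but 95.6% of its windows are shared. Slc40a1, the iron exporter ferroportin, was hardly expressed (1.32 RPKM of mRNA) and stood at -1.89 ± 0.52. Its value rests on 5 to 9 footprint reads and 18 to 44 RNA-seq reads per library. The letters CAGTG with a C 6 bases before them, any base after them and 5 bases that pair across this loop, on the sense strand, occur in 13 of 10053 annotated 5′ UTRs (0.129%), whereas CAGTG alone occurs in 22.5%. Of these 13 genes 4 were below the median gene and 1 above, where 12% and 5.48% of all genes were. However, 3 of the 4 were Ftl1, Fth1 and Slc40a1, the known IRE genes already described. The count is therefore not a separate result about the pattern. The fourth gene below was Vti1b, a SNARE protein of vesicle fusion (-1.97 ± 0.13), and the gene above was Nfib, a transcription factor (1.63 ± 0.37). Both were singled out after their values had been seen, and a match of letters does not show a hairpin.

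Selenoproteins need a UGA codon to be read as selenocysteine. They were spread widely, with 3 of 18 below (16.7%) and 1 above the median gene (5.56%), near the 12% and 5.48% of all genes, and a list median of -0.13 ± 0.19 (-0.42 after correction for CDS length), the lowest lysate being Gfp 1 with -0.44. Without Sephs2 the median was -0.07, with 2 of 17 below. Gpx4, the glutathione peroxidase that protects membrane lipids, had 1630 RPKM of mRNA and 570 RPKM of footprints on average, a TE of -1.43 ± 0.13 (limma, adjusted p = 0.00212, 58.4% of windows shared). Selenop, the selenium carrier, has 10 in-frame TGA codons and stood at -1.52 ± 0.08, with all lysates between -1.64 and -1.45. The member called above was Txnrd2, mitochondrial thioredoxin reductase (1.17 ± 0.13), next to Selenon (1.16 ± 0.23), which was not called. Leaving out 1 lysate ended the call of Txnrd2 for scramble 1 (1.15), scramble 2 (1.15) and Gfp 2 (1.14), and brought Selenon past the test for Gfp 1 (1.24). The TGA is shown in capitals for Gpx4 and Selenop, where many codons follow it, and for Txnrd2, where it is the codon 526 of 528.
Gpx4 (chr10:80054725-80054751, plus): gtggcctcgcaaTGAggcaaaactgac
Selenop (chr15:3274836-3274862, plus): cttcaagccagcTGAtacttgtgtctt
Txnrd2 (chr16:18477760-18477780, plus): gtgactggttgcTGAggctaa

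Of the translation machinery, ribosomal proteins lay near the median gene before, and below it after, a correction for CDS length. Cytosolic ribosomal proteins, whose mRNAs start with a terminal oligopyrimidine (TOP) tract and are held back when mTOR is inactive, had a median TE of -0.01 ± 0.12, with 5 of 73 above (6.85%) and 7 below (9.59%), near the shares of all genes (5.48% and 12%). The list is of short CDSs (median 453 nt), and its median was -0.50 after correction for CDS length. In addition, 71 of the 73 have shared windows, and a value such as that of Fau (3.38 ± 1.34 at 3.33 RPKM of mRNA) rests on the few reads that were assigned to it. Also above were Rpl3 (1.96 ± 0.65), Rpl11 (1.49 ± 0.46) and Rpl23a (1.38 ± 0.41), and the calls of Rpl11 and Rpl23a did not hold without scramble 1 (1.47 and 1.42), scramble 2 (1.35 and 1.21) or Gfp 2 (1.44 and 1.35). Rplp0, the stalk protein, had 1850 RPKM of mRNA and 267 RPKM of footprints and a TE of -2.71 ± 0.14 (77.4% shared). Of 18 other TOP mRNAs 1 lay below and 1 above (5.56% each, against 12% and 5.48% of all genes). Pabpc1, the poly(A)-binding protein, was below with -2.19 ± 0.21, and Tpt1, the tumour protein TCTP, above with 1.65 ± 0.13, both with shared windows. Vim (0.96 ± 0.06) and Eef1g (-0.71 ± 0.09, 95.3% shared) were not past the test. Nor were the elongation factors Eef1a1 (-0.44 ± 0.14, 88.5% shared) and Eef2 (-0.09 ± 0.15, 28.6% shared). Annotated transcripts that begin with C and at least 4 more pyrimidines (222 genes, 2.16% of transcripts) had a median TE 0.09 ± 0.02 above the others, but only 7 of the 73 ribosomal protein transcripts began so in the annotation, so that these letters do not stand for the TOP class.

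Genes named Eif and a number (50 genes), most but not all of them initiation factors, had a median of 0.28 ± 0.07. After correction for CDS length it was 0.18. Of them 3 were above (6.0%) and 1 below (2.0%), against 5.48% and 12% of all genes. At the top were Eif1, Eif5a (1.5 ± 0.16, 42.9% shared), the hypusinated elongation factor, and Eif3j1 (1.26 ± 0.18). Eif2ak4, the amino acid sensor GCN2, was at the bottom (-1.72 ± 0.14), but it is a kinase and not itself an initiation factor. Eif3j1 was not past the test without scramble 2 (1.23). Eif1 selects the start codon and is known for a poor start context of its own, whose score here was 0. Aminoacyl-tRNA synthetases, which charge tRNAs, were close together. All 20 lay between -0.41 (Mars) and 0.78 (Wars) and 0 were past the test, with a median of 0.24 ± 0.05 (0.51 after correction for CDS length). Ribosome biogenesis factors (45 genes, median 0.21 ± 0.06, 0.37 after correction) had 3 members above (6.67%, against 5.48% of all genes) and 0 below. Those above were Gar1 and Nop10 of the H/ACA particles (1.57 ± 0.25 and 1.23 ± 0.13) and nucleolin, Ncl (1.25 ± 0.23). Nop10 lost its call without scramble 1 (1.19), and Ncl without any of the scramble lysates (1.27, 1.22 and 1.27) or Gfp 1 (1.18). Heatr1 (-0.62 ± 0.11) and Utp20 (-0.61 ± 0.12), long proteins of the small subunit processome, were lowest and turned to 0.21 and 0.38 once TE was corrected for CDS length. In the group of DENR, which promotes reinitiation after uORFs and is the target of the study, 0 of 5 members were past the test. Denr stood at -0.07 ± 0.10, its partner Mcts1 at 0.78 ± 0.25, Mcts2 at 0.69 ± 0.09, Eif2d at -0.89 ± 0.09 and the recycling factor Abce1 at 0.13 ± 0.26.

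**Figure D5:**
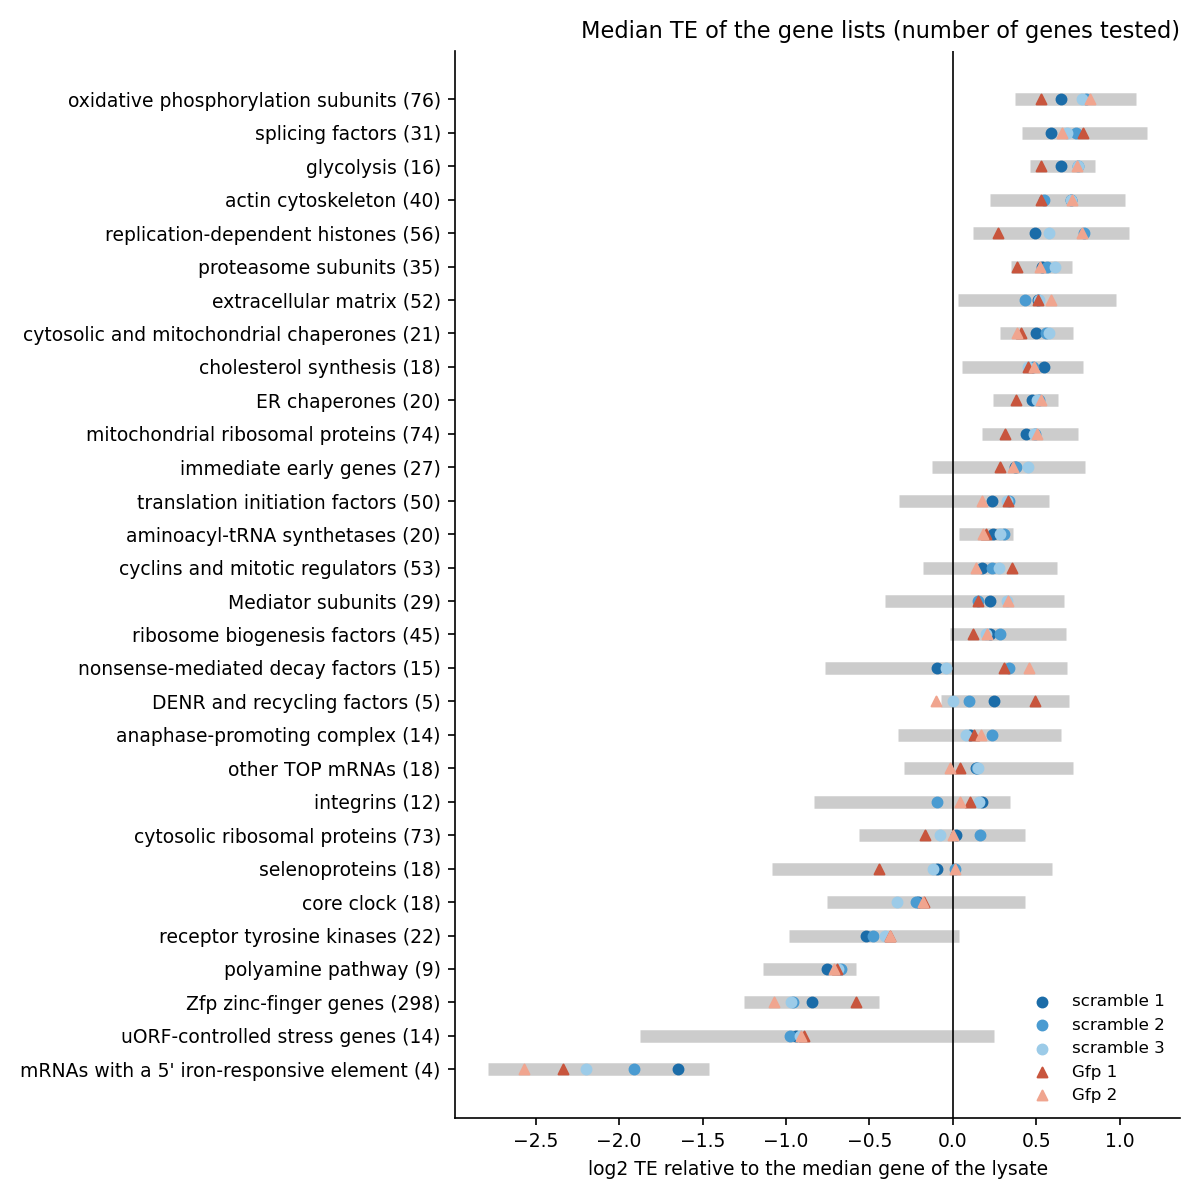
Median log2 TE of the 30 gene lists in each control lysate (circles scramble, triangles Gfp), ordered by their mean, with the number of genes tested in brackets. Grey bars span the lower to the upper quartile of the members, and the medians run from -2.13 for mRNAs with an IRE to 0.71 for oxidative phosphorylation subunits.

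Among the metabolic complexes, subunits of oxidative phosphorylation had the highest list median (0.71 ± 0.12). Of 76 members 73 lay above 0, 16 (21.1%, against 5.48% of all genes) were above the median gene by the test and 0 below. Uqcrq reached 3.17 and Ndufs5 of complex I 2.31 ± 0.29, the latter with 80.8% of its windows shared. Cox7a2l (-0.43 ± 0.30, 62.5% shared) and Ndufb8 (-0.23 ± 0.15, 21.1% shared) were lowest. The list is of short proteins, with a median CDS of 417 nt, and its median was 0.27 after correction for CDS length. In the 37 members with under 5% of windows shared it was 0.64. Mitochondrial ribosomal proteins had 64 of 74 members above 0 and a median of 0.45 ± 0.08, or 0.07 after correction. Few were called, with 3 above (4.05%, against 5.48% of all genes) and 0 below. On top were Mrpl14 at 1.89 ± 0.16, Mrps6 at 1.38 ± 0.08 (45.0% shared) and Mrpl34 at 1.31 ± 0.24. Mrpl34 was no longer called without scramble 2 (1.26), scramble 3 (1.25) or Gfp 2 (1.28). Of the 35 proteasome subunits 32 lay above 0 (median 0.52 ± 0.09) and 3 were above by the test (8.57%, against 5.48% of all genes). These were the ATPase Psmc4 (1.68 ± 0.06), Psmd11 (1.29 ± 0.09, 51.5% shared) and the core subunit Psmb2 (1.23 ± 0.10). Glycolytic enzymes (16 genes, median 0.68 ± 0.10) had 1 member above (6.25%, against 5.48% of all genes), Eno1 (1.25 ± 0.18, 89.9% shared). Hk1 was close to it in size but not past the test (0.99 ± 0.07), and Eno1 lost its call without scramble 2 (1.19) or Gfp 2 (1.23). Cholesterol enzymes (18 genes, median 0.48 ± 0.04) had 1 member above (5.56%), Dhcr7, the last enzyme of the pathway (1.35 ± 0.06), whereas mevalonate kinase Mvk stood at -0.78 ± 0.16. Of these last 3 lists, 0 members were below the median gene.

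Matrix production is the characteristic task of fibroblasts. Of 57 matrix genes measured 52 passed the mRNA limit. Of these 7 (13.5%, against 5.48% of all genes) were above the median gene and 1 was below (1.92%, against 12%). The list median was 0.51 ± 0.06, and 40 members lay above 0. Since their CDSs are long (median 3514 nt), the median rose to 0.88 after correction for CDS length. Col1a1, the main chain of collagen I, had 595, 454, 430, 648 and 623 RPKM of footprints on 167, 137, 108, 170 and 165 RPKM of mRNA. All lysates lay near 2, with a TE of 1.95 ± 0.11 (limma, adjusted p = 9.9e-06), and its 5′ UTR was similarly occupied (2.12 ± 0.76 above the median 5′ UTR). The proteoglycan Bgn reached 2.04 ± 0.06, with footprints of 1490 to 1840 RPKM. The others above were Timp3 and Mmp14, an inhibitor and an enzyme of matrix breakdown (1.89 ± 0.07 and 1.33 ± 0.07), Fbln5 (1.72 ± 0.22), the crosslinking enzyme Lox (1.66 ± 0.21) and Col6a2 (1.28 ± 0.10). Col1a2 (0.90 ± 0.09) and fibronectin Fn1 (0.78 ± 0.09) were not past the 2-fold test. The microfibril protein Fbn1 stood at -0.27 ± 0.12, and the member below was Col17a1, a collagen of epithelia with only 5.62 RPKM of mRNA (-1.36 ± 0.19). Together the matrix genes took 2.18% ± 0.252 of RNA-seq reads and 3.38% ± 0.471 of footprints, more in all 5 lysates.

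Chaperones of the endoplasmic reticulum, through which matrix proteins pass, had 2 of 20 members above (10.0%, against 5.48% of all genes) and 19 above 0 (median 0.48 ± 0.06). These were the disulfide isomerases Pdia3 (2.23 ± 0.10, 933 RPKM of footprints for 209 of mRNA) and Pdia5 (1.76 ± 0.07), and Hspa5 stood at 0.77 ± 0.08. Cytosolic and mitochondrial chaperones had 2 of 21 members above (9.52%, median 0.49 ± 0.09), with Hsph1 (1.81 ± 0.18) and Hsp90ab1 (1.48 ± 0.06) above and Hspa8 at -0.84 ± 0.28 with 95.0% of windows shared. Actin and its partners had 9 of 40 members above (22.5%, against 5.48% of all genes) and 2 below (5.0%, against 12%), with a median of 0.64 ± 0.10. Actn4, which crosslinks actin, reached 2.22 ± 0.12 and Capzb, which caps filament ends, 1.98 ± 0.18. The 2 below were both forms of 1 subunit of the Arp2/3 complex, Arpc1a with 97.6 RPKM of mRNA and 13.9 RPKM of footprints (-2.73 ± 0.13) and Arpc1b (-1.76 ± 0.21, 53.8% shared).

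Receptor tyrosine kinases, receptors of growth factors at the cell surface (23 measured, 22 tested), had 4 members below (18.2%, against 12% of all genes), 0 above and a median of -0.43 ± 0.07, which was 0.07 after correction for their long CDSs (median 2976 nt). Ryk, a Wnt receptor, was the most extreme with 355, 348, 342, 338 and 335 RPKM of mRNA and 21.1, 18.5, 20.2, 22.9 and 20.8 RPKM of footprints. Its lysates lay close together, with a TE of -3.97 ± 0.12 (limma, adjusted p = 5.68e-07), and its 5′ UTR, with 1 uORF, had 62.7 RPKM of footprints for 29.5 of mRNA. Met, the receptor of hepatocyte growth factor, stood at -1.79 ± 0.23, Tyro3 and Axl, which bind Gas6, at -1.62 ± 0.14 and -1.26 ± 0.09, and Ddr2, a collagen receptor, was highest with 0.51 ± 0.17. Integrins (12 genes, median 0.08 ± 0.11, 0.46 after correction) had 1 member above and 1 below (8.33% each, against 5.48% and 12% of all genes). Itga5, the fibronectin receptor subunit, was above (1.20 ± 0.12) and Itgb5 below (-1.48 ± 0.11). The call of Itga5 was lost without scramble 1 (1.17) or scramble 3 (1.17).

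Nuclear regulators were mixed. Zfp zinc-finger genes were the largest poorly translated list, with 67 of 298 tested genes (22.5%, against 12% of all genes) below and 5 above (1.68%, against 5.48%). Their median was -0.88 ± 0.19, with 273 below 0. The median was -0.58 in Gfp 1 and -0.84 to -1.07 in the other lysates. Zfp236 (-3.28 ± 0.14) and Zfp251, with 8 uORFs (-3.0 ± 0.06), were lowest, and Zfp580 (2.5 ± 0.87) and Zfp395 (2.25 ± 0.35) highest, the former at 1.81 RPKM of mRNA. Zfp703 (2.14 ± 0.23), Zfp706 (1.68 ± 0.24) and Zfp385a (1.22 ± 0.17) were the other 3 above, and Zfp385a was not past the test without scramble 1 (1.22) or Gfp 2 (1.15). Of the 304 measured, 6 fell under the mRNA limit. Splicing factors had 7 of 31 members above (22.6%, against 5.48% of all genes), 0 below and a median of 0.69 ± 0.07, which was 0.43 after correction for CDS length. Sf3a2 of the U2 snRNP reached 2.82 ± 0.11, with 104 to 114 RPKM of footprints on 15.3 to 17 RPKM of mRNA. Sf3b4 reached 1.75 ± 0.06 (83.8% shared). The other 5 above, Snrpd3, Sf3b5, Snrpf, Snrpa and Snrpc, lay between 1.17 and 1.56, and Snrpc was called in none of the fits without scramble 1 (1.18), scramble 2 (1.14), scramble 3 (1.14) or Gfp 2 (1.16). The 13 members with under 5% of windows shared had a median of 0.50. Mediator subunits (29 genes, median 0.24 ± 0.09, 0.11 after correction) had 2 members below (6.9%, against 12% of all genes) and 0 above. Below were Med13l (-2.30 ± 0.19) and Med13 (-2.07 ± 0.34), which tether the kinase module.

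Replication-dependent histones had a median of 0.58 ± 0.21 over 56 genes, with 11 above (19.6%, against 5.48% of all genes) and 2 below (3.57%, against 12%). The median was 0.01 after correction for their short CDSs (390 nt), and 50 of them have shared windows and 23 are intronless minus-strand genes. Both genes below, Hist1h3e and Hist2h3c2, are among the 23. The other 33 had a median of 0.90, with the same number above and 0 below. Immediate early genes (28 measured, 27 tested, median 0.37 ± 0.06, 0.16 after correction) had 4 above (14.8%, against 5.48% of all genes) and 2 below (7.41%, against 12%). The highest were Egr1 (1.98 ± 0.35) and Myc (1.80 ± 0.07, 140 RPKM of footprints for 42.3 of mRNA), followed by Fosl1 (1.54 ± 0.11) and Zfp36l1 (1.45 ± 0.21). Srf, the transcription factor that drives many of them, was below with -1.33 ± 0.17, and the other gene below, Ier5l, is an intronless minus-strand gene, as is Jun (0.12 ± 0.14).

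In the cell cycle, cyclins and mitotic regulators (53 genes, median 0.24 ± 0.08) were spread to both sides. Of them 3 were above (5.66%) and 2 below (3.77%), against 5.48% and 12% of all genes. Cdkn1a, the CDK inhibitor p21, had 570, 484, 378, 606 and 525 RPKM of footprints on 83.2, 68.8, 47.0, 77.6 and 65.7 RPKM of mRNA, a TE of 2.99 ± 0.11 (limma, adjusted p = 1.14e-06), although 6 uORFs are annotated on its longest transcript, whose 5′ UTR of 508 nt is not the one of 414 nt that was counted. Ccnd2, cyclin D2, was also above (1.51 ± 0.07), as was Cenps (1.33 ± 0.27), though not without scramble 2 (1.31). Plk4, the kinase of centriole duplication, was lowest with 70.9 RPKM of mRNA, 10.6 RPKM of footprints and a TE of -2.65 ± 0.31, followed by the centromere protein Cenpi (-1.44 ± 0.09). Of the 14 subunits of the anaphase-promoting complex 1 was above (7.14%) and 2 below (14.3%), near the 5.48% and 12% of all genes. Anapc2, the cullin, reached 2.07 ± 0.18 while Anapc5 lay at -2.72 ± 0.10. In levels this was 96.0 RPKM of footprints from 24.2 RPKM of mRNA for Anapc2 and 66.3 from 461 for Anapc5, so that the subunit with far less mRNA had more footprints per length. Anapc1 was also below (-1.16 ± 0.03) but not past the test without scramble 1 (-1.16), scramble 2 (-1.15), scramble 3 (-1.17) or Gfp 2 (-1.15).

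The core clock (19 measured, 18 tested, median -0.22 ± 0.07, -0.10 after correction for CDS length) had 1 gene above (5.56%) and 2 below (11.1%). This was near the 5.48% and 12% of all genes. Bhlhe41 was highest (1.65 ± 0.23), Nr1d1, the repressor REV-ERBα, stood at 1.04 ± 0.17 and Per3 (-2.11 ± 0.11) and Nr1d2 (-1.23 ± 0.20) lay below, the latter not without scramble 1 (-1.23), scramble 2 (-1.21), scramble 3 (-1.21) or Gfp 2 (-1.19). Clock had 28.2, 33.7, 40.9, 18.1 and 30.9 RPKM of mRNA and 11.4, 11.5, 11.3, 12 and 8.96 RPKM of footprints. Gfp 1 was the odd lysate with a TE of -0.52 against -1.75 to -1.22 in the others, and the mean of -1.33 ± 0.50 was not past the test (limma, adjusted p = 0.243), but it was past it without Gfp 1 (-1.54, adjusted p = 0.00576). Factors of nonsense-mediated decay (15 genes, median 0.19 ± 0.25) had 2 members below (13.3%, near the 12% of all genes) and 0 above. Below were Smg5 (-2.58 ± 0.10) and the kinase Smg1 (-1.95 ± 0.27), and Upf1, the central helicase, stood at 0.98 ± 0.10.

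The classes carried over between the control shRNAs. Of the 1031 genes in the highest 10% of TE in the 3 scramble lysates, 901 (87.4%) were also in the highest 10% of the 2 Gfp lysates and 1029 lay above 0 there, with a median of 1.26 in scramble and 1.21 in Gfp. Of the 1031 in the lowest 10%, 902 (87.5%) were again in the lowest 10% and 1031 lay below 0, with medians of -1.87 and -1.79.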

How the data were processed

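RPF-seq and RNA-seq libraries were prepared from the same lysates with the ART-Seq kit and Ribo-Zero, so the libraries of a lysate are paired by design. Their deviations from the group means correlated across genes with r = 0.0513 to 0.445 in the scramble lysates and -0.205 in the Gfp lysates. The authors deposited RPKM values, 1 for the CDS and 1 for the 5′ UTR of each gene. For these the authors kept reads by length, aligned them to rRNA, tRNA, cDNA and the genome (GRCm38) with Bowtie2 2.2.1 and TopHat 2.0.11, counted footprints by putative A-site and RNA-seq reads by 5′ end on isoforms expressed by Cufflinks 2.2.1, and normalised both assays separately with edgeR's upper quartile. The zero of TE is therefore arbitrary, and each lysate was centred on its median gene. Samples were grouped by the labels, and no library was pooled.

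TE was tested with limma 3.58.1 in R 4.3.3 (treat against 2-fold, trend, an intercept over the 5 lysates, Benjamini-Hochberg FDR below 0.1). On simulated data with 200 changed genes of 10309 it found 72% of the 100 with a TE of 1.5 to either side and 97% of those with 2.5. The unchanged genes were simulated at a TE of 0, well inside the 2-fold limit, so that 0 calls among them followed from the setting. False calls of genes close to 2-fold were not simulated. Whole reads and region lengths were recovered from the steps between RPKM values. Lysate medians were compared by exact two-sided sign-flip permutation tests. Annotation and sequences were those of GENCODE vM21 (for each gene its longest-CDS transcript), and symbols were found for 10505 of 10516 IDs.

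Members and lists were chosen with earlier results of these data known. Genes were named by rule as the 10 highest and 10 lowest past the test with at least 50 RNA-seq reads in each lysate, the extremes of each list, all members of lists of up to 8, and 35 genes known for translational control or as references. Other members past the test were named after their values had been seen. Some genes that meet the rule are not reported here. Alternatives were pseudocounts of 0.01 and 1, other filters, centring, tests and pairings, subsets of lysates, voom on recovered reads and correction for CDS length. A trend on mRNA abundance, crossed Gfp pairs, genes without shared windows and genes other than intronless minus-strand ones were alternatives chosen after seeing the data. Scripts used Python 3.11.15, numpy 2.4.6, pandas 2.3.3 and scipy 1.17.1.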

Additional observations from a re-analysis of the deposited data

Results flagged for a closer look

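In 11 of 193 sets of 5 lysate values (the named genes, list medians and comparisons) 1 lysate lay further from the others than Dixon's 95% critical value. Chance gives about 1 in 20 such sets. The lysate was Gfp 1 in 5 of them and scramble 3 in 4. Gfp 1 was low in TE for Uqcrq (2.73, others 3.23 to 3.33), Insyn1 (-5.76, others -5.37 to -5.26), Gar1 (1.14, others 1.56 to 1.73) and the median of the selenoproteins (-0.44, others -0.12 to 0.01), and high for Azin1 (-0.35, others -0.70 to -0.61). Scramble 3 was high for Sox9 (3.77, others 3.29 to 3.40) and Itga3 (0.64, others 0.35 to 0.39) and low for Ndufs5 (1.81, others 2.33 to 2.48) and Gpr153 (-6.03, others -4.20 to -3.73), where its footprint library had 0 reads on the CDS. Gfp 2 was high for Ppp1r15a (-2.87, others -3.15 to -3.07), and scramble 1 low for Gadd45g (0.46, others 0.77 to 0.86). In 1 set all scramble lysates lay on one side of 0 and both Gfp lysates on the other. This was the difference in 5′ UTR footprint density between genes with TE below the median gene and the rest, with a mean of -0.046 in the scramble and 0.045 in the Gfp lysates (scramble minus Gfp -0.092). Whether the shRNAs differ was not tested.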

How the results depend on the processing

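The counts of 565 genes above and 1234 below the median gene changed by over 1.5 times without a fold threshold inside the test (879 above) and in the Gfp lysates alone (298 and 685), where 2 lysates were fitted. Leaving out 1 lysate gave 499 to 584 above and 1112 to 1313 below. RPF-seq and RNA-seq libraries compared without the replicate block, as unpaired libraries, gave 471 and 1155, and the replicate number as a block gave 606 and 1298. With the Gfp pairs crossed, which was added after seeing the data, 577 and 1274 were found. TE then correlated between the Gfp lysates with r = 0.936 instead of 0.907, and with the scramble lysates with a mean r of 0.951 instead of 0.943. Which pairing is right was not tested, so values that set Gfp 1 apart may depend on it. Without the intronless minus-strand genes, also added later, they were 559 and 1219. The SD of TE over genes moved to 0.91 with a pseudocount of 1 and to 0.92 after correction for CDS length. The difference of genes with and without a uORF moved to -0.46 when transcripts were chosen by 5′ UTR length and to -0.39 after correction for CDS length. TE changed sign after correction for CDS length for Heatr1 (0.21), Utp20 (0.38), Psmd2 (0.23, 46.8% shared), Fbn1 (0.73), Manf (-0.28), Dnajb1 (-0.15), Sf3b3 (0.24), Eef2 (0.26) and Jun (-0.063). Centred on the mean gene it did so for Denr (0.053) and Eef2 (0.033), and in the scramble lysates alone for Eef2 (0.0042). Without Gfp 2 it did so for Dnajb1 (-0.030, and up to 0.089 without another lysate). All of these are genes not past the test. Of the values of named genes under an alternative, 1878 kept direction and side of the threshold, 108 lost a call, 25 gained one and 13 changed sign. Of the list medians 290 moved by less than 1 SD and 49 by more. Except for the settings that only leave out genes or lysates, the causes were not tested. Genes with few footprints are limited by depth, as Map3k10 and Insyn1 rest on 7 to 21 reads a library.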

Other observations

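Some abundant mRNAs had few footprints on the 5′ UTR although their CDS was translated near or above the median gene. Relative to the median 5′ UTR, the 5′ UTR of Actb lay at -2.91 ± 0.44 (log2 footprints over mRNA, SD, n = 5). It had 3010 RPKM of mRNA and 360 RPKM of footprints, while the CDS of Actb stood at 0.64 ± 0.16 (45.8% shared). For Eef1a1 the values were -2.0 ± 0.15 on the 5′ UTR and -0.44 ± 0.14 on the CDS, and for Ccnd1 -1.83 on the 5′ UTR and 1.11 ± 0.08 on the CDS. In Rplp0 both were low (-2.77 and -2.71). At the other end, the 5′ UTRs of Hnrnpd (3.27 ± 0.27), Ecm1 (2.90 ± 0.16) and Cdkn1a (2.23) were about as occupied as their well translated CDSs.

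The lists differed in how far their share of the reads changed from RNA-seq to RPF-seq, and the causes were not tested. Ribosomal proteins took 4.07% ± 0.22 of the RNA-seq CDS reads and 3.46% ± 0.259 of the footprints, and oxidative phosphorylation subunits 1.68% ± 0.103 and 2.45% ± 0.0587. The 4 mRNAs with an IRE went from 0.291% ± 0.0583 to 0.0604% ± 0.0054, and the 14 uORF-controlled stress genes from 0.249% ± 0.00431 to 0.0873% ± 0.00588, lower among the footprints in all 5 lysates.

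In the RPF-seq library of scramble 3, 145 genes had 1 recovered read on the 5′ UTR, 289 had 2, 169 had 3 and 212 had 4. In the other 4 RPF-seq libraries 459 to 559 genes had 1 read and 317 to 397 had 2.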
